A study of Mus musculus with 32 samples.

Results

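The 10 genes described here, *Trem2*, *Gpnmb*, *Cd9*, *Spp1*, *Lgals3*, *Cd68*, *Itgax*, *Lpl*, *Mmp12* and *Fabp5*, are associated with lipid-associated and scar-associated macrophages. They were taken by gene name from the 54532 genes counted in the livers of *Cyp2c70* KO and WT mice. *Gpnmb* and *Trem2* were picked for their large rise in the KO mice and their fall with the inhibitor SC-435. Their values in those contrasts, and in others that share those mice, are therefore given as a description without a test.

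Liver RNA was sequenced from 32 C57BL/6 mice killed at 12 weeks of age, 4 in each of 8 groups set by sex, genotype and diet. The KO mice came from 1 founder in which CRISPR-Cas9 had removed exon 2 of *Cyp2c70*, the gene of the mouse liver enzyme that makes muricholic acids, and they carry no other labelled allele. WT mice carry the intact gene. Chow-fed mice received no drug, and treated mice received chow with 0.006% SC-435, an inhibitor of the ileal bile acid transporter (IBATi), at about 11 mg/kg/day. The labels place the diet switch 3 weeks after weaning, whereas the study's own scheme places it at weaning, so the length of treatment is not settled here. Every mouse is 1 whole-liver library in which all cell types are mixed.

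Lipid-associated macrophages are recruited phagocytes that take up lipid and cell debris, and they are known from adipose tissue, atherosclerotic plaques and fatty liver. In scarred human and mouse liver, closely related cells that carry TREM2 and CD9 lie beside collagen-producing cells. TREM2 is the lipid-sensing receptor of this state and signals through its partner TYROBP to the kinase SYK, while GPNMB, CD68 and galectin-3 belong to its lysosomal and secreted repertoire.

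Total gene counts lay between 36476021 and 44771350 per mouse (median 42232543). Male WT chow replicate 1 stood apart from the other libraries, with a TMM scaling factor of 0.622 against 0.911 to 1.26 elsewhere and a mean correlation of 0.918 with its own group against 0.962 to 0.989, so the KO and WT males on chow are also compared without it. *Cyp2c70* itself was counted at 109 to 188 CPM in KO and 272 to 839 CPM in WT mice, with no overlap. All 10 macrophage markers from *Adgre1* to *Ptprc* and all 10 resident Kupffer cell markers, among them *Clec4f* and *Timd4*, were counted in every group. CPM here is a count scaled by the TMM-adjusted library total, and 3 counts amount to at most 0.117 CPM.

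On GRCm38 the genes lie on separate chromosomes or far apart, with *Trem2* (ENSMUSG00000023992) on chromosome 17 from 48346401 to 48354147, *Gpnmb* (ENSMUSG00000029816) on chromosome 6 from 49036546 to 49070929, *Cd9* (ENSMUSG00000030342) on chromosome 6 from 125460266 to 125494791, *Spp1* (ENSMUSG00000029304) on chromosome 5 from 104435118 to 104441050 and *Lgals3* (ENSMUSG00000050335) on chromosome 14 from 47367751 to 47386160. The other members are *Cd68* (ENSMUSG00000018774) on chromosome 11 from 69664213 to 69666153, *Itgax* (ENSMUSG00000030789) on chromosome 7 from 128129547 to 128150657, *Lpl* (ENSMUSG00000015568) on chromosome 8 from 68880491 to 68907448, *Mmp12* (ENSMUSG00000049723) on chromosome 9 from 7344381 to 7369499 and *Fabp5* (ENSMUSG00000027533) on chromosome 3 from 10012548 to 10016607. RefSeq promoter windows of 300 bases, from 250 before to 50 after a gene's start on GRCm38.p6, matched 8 of the 10 genes with 10 windows, with none used for *Lpl* and *Fabp5*. The motif TGANTCA (N is any base) is a looser form of the AP-1 site, which has C or G as its middle base. The match in *Trem2* has A there and is not that site. The windows of the 5 members that hold TGANTCA are shown because these genes, *Gpnmb* and *Trem2* included, were the ones with a match. The *Spp1* window is shown as the most abundant member, without one. They are *Gpnmb* at chr6:49036268-49036567 (+ strand), *Trem2* at chr17:48346151-48346450 (+ strand), *Mmp12* at its second listed start at chr9:7347124-7347423 (+ strand), *Itgax* at chr7:128129300-128129599 (+ strand), *Cd68* at chr11:69666121-69666420 (- strand) and *Spp1* at chr5:104434861-104435160 (+ strand), each written 5′ to 3′ on the strand of the gene with the motif in capitals.
Gpnmb: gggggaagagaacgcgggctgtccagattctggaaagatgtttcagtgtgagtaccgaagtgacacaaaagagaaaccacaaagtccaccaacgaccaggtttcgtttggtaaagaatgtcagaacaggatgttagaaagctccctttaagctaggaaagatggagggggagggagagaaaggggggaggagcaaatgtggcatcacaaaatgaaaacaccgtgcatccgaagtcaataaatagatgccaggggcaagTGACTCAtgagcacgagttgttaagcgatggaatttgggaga
Trem2: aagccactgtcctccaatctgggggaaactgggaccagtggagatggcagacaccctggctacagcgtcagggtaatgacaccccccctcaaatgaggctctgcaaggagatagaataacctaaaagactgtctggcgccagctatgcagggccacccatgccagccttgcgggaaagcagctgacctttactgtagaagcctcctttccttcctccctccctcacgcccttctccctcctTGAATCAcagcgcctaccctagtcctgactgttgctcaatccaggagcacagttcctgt
Mmp12: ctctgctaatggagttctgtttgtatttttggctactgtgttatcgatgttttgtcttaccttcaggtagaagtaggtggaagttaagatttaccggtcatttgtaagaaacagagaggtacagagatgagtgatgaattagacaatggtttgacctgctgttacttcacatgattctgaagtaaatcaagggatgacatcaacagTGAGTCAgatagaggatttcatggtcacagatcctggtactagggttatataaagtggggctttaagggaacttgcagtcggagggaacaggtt
Itgax: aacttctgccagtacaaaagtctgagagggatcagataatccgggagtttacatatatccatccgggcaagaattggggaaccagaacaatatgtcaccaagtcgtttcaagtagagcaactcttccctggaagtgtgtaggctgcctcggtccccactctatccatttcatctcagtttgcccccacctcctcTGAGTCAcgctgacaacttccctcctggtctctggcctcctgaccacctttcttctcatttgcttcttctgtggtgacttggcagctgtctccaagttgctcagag
Cd68: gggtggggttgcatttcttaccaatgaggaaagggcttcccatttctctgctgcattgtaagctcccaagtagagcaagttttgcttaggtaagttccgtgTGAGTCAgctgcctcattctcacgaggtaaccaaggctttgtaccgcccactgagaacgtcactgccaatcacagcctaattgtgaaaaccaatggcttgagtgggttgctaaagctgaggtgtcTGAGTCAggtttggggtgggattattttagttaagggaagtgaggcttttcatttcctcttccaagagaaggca
Spp1: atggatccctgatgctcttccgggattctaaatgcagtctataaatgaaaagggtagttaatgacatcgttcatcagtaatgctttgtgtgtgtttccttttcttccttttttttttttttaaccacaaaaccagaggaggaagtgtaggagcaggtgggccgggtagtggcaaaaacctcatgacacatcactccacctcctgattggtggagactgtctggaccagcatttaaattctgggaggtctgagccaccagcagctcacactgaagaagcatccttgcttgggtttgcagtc

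Counting the start as base 0, the match began at base 8 in *Gpnmb* (TGACTCA), at -9 in *Trem2* (TGAATCA), at -44 in *Mmp12*, at -56 in *Itgax*, and at -149 and -24 in *Cd68* (TGAGTCA in these 3 genes). Matches to TGANTCA occurred in 5 of the 8 genes with a window (5 of 10 windows) and in 7.81% of the 32851 windows of all genes. Other motifs searched on both strands were CACGTG in 0 of the 8 genes (7.15% of all windows), CATGTG in *Cd9* and *Mmp12* (14.2%), GAGGAA in *Spp1*, *Mmp12*, *Cd68* and *Trem2* (28.3%), GAGGAAGT, which contains GAGGAA, in *Spp1* and *Mmp12* (3.2%), and TCACCCCAC in 0 of 8 (0.551%). These letters describe the windows, and no binding was measured.

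On chow, female KO livers held more RNA of 7 of the 8 members not picked for their change, called by edgeR where the adjusted p was under 0.05 and the log2 difference exceeded 1, where 5.67% of the 16205 genes tested were higher by the same rule. The 7 genes were *Cd9*, *Spp1*, *Lgals3*, *Cd68*, *Itgax*, *Lpl* and *Mmp12*, and their KO and WT values did not overlap, as in 12% of genes in that direction. *Fabp5* was the exception. The median log2 fold change of the 8 was 2.03 against -0.02 over all genes tested. Male KO livers had 2 of the 8 called higher, *Spp1* and *Mmp12*, against 0.914% of 15862 genes, with a median of 1.76 against 0.04, and in 4 of the 8 (*Spp1*, *Lgals3*, *Itgax* and *Mmp12*) the groups did not overlap, against 7.9% of genes. Without male WT chow replicate 1 the male count was 5 of 8, with *Cd9*, *Lgals3* and *Itgax* added, and 3.18% of 16390 genes were then higher. In that fit *Spp1* and *Mmp12* differed by 4.25 (adjusted p = 0.0277) and 5.69 (adjusted p = 0.00254), while *Cd68* at 1.39 (adjusted p = 0.0791), *Lpl* at 1.06 (adjusted p = 0.0861) and *Fabp5* at 0.57 (adjusted p = 0.0771) did not pass. *Trem2* and *Gpnmb* differed there by 4.47 and 7.03. In bulk tissue, more cells of a type and more RNA per cell cannot be told apart.

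SC-435 lowered 6 of the 8 in female KO mice (*Cd9*, *Lgals3*, *Cd68*, *Itgax*, *Lpl* and *Mmp12*), against 3.7% of 16332 genes, and *Fabp5* was called higher, against 2.11%. In male KO mice the drug also lowered 6 of the 8 (*Cd9*, *Spp1*, *Lgals3*, *Cd68*, *Itgax* and *Mmp12*), against 4.57% of 15984 genes. The median log2 changes of all 8 were -1.66 in females and -1.88 in males, against -0.02 and -0.03 over all genes tested. The KO chow mice are part of both contrasts, so the rise and the fall are not independent of each other.

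**Figure D1:**
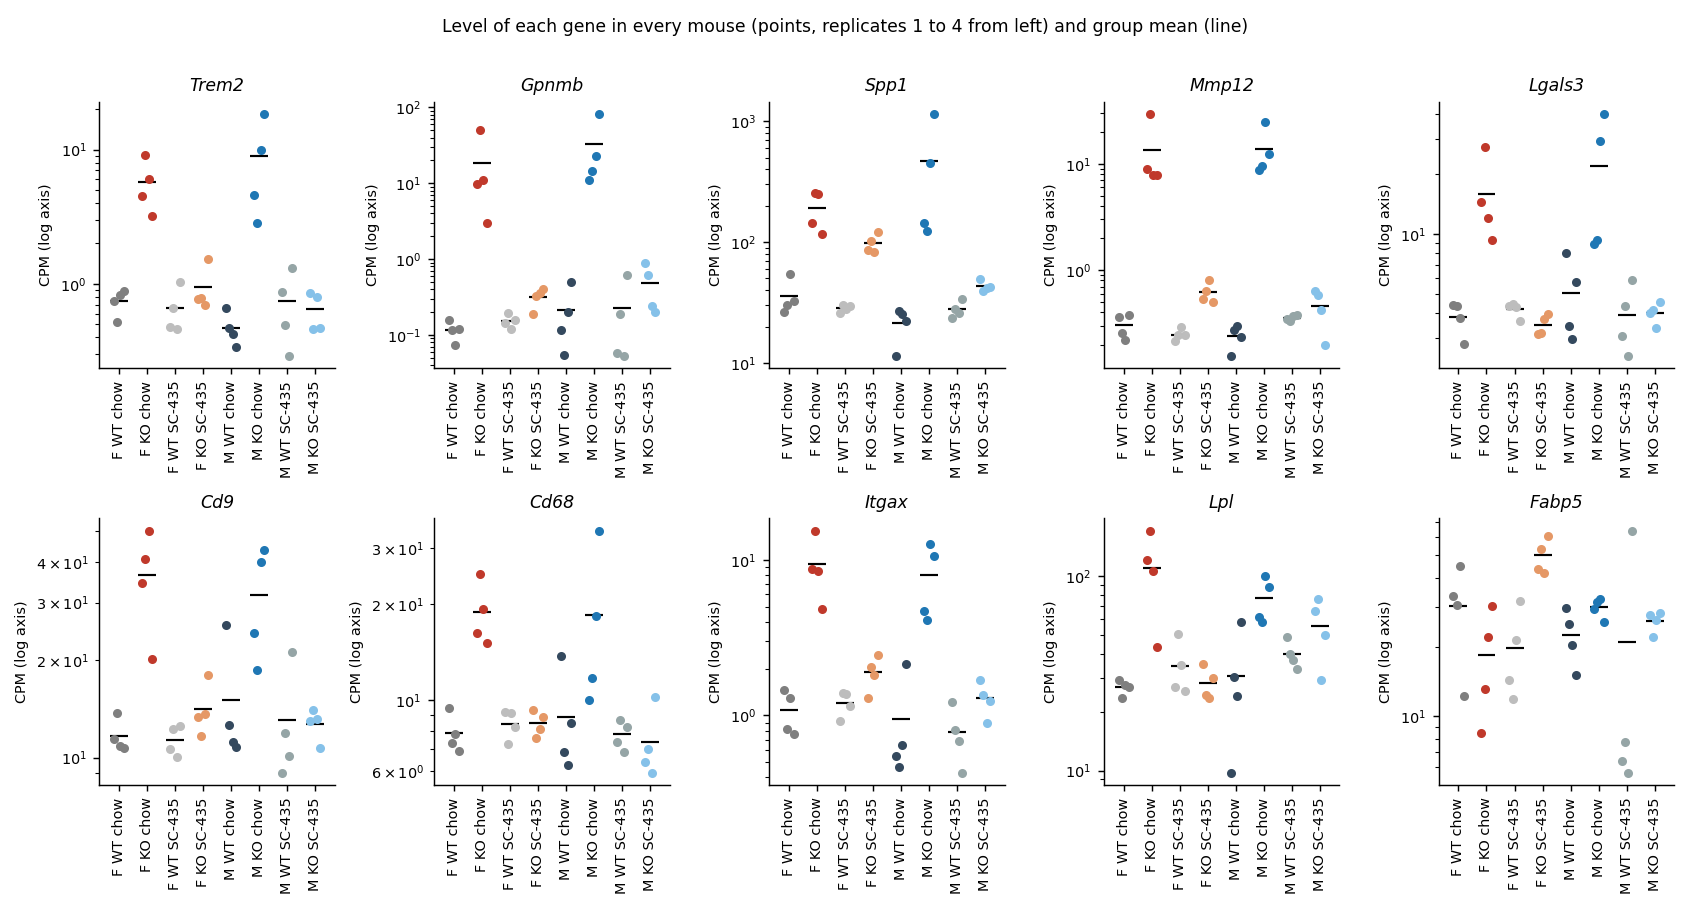
CPM (log axis) of each gene in every mouse of the 8 groups, with points for replicates 1 to 4 from left to right and a line at the group mean. The KO chow mice stand above every other group for *Gpnmb*, *Trem2* and *Mmp12*, while *Fabp5* has its highest group mean, near 50 CPM, in female KO mice on SC-435.

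TREM2 is the lipid receptor of macrophages. In females, *Trem2* stood at 0.75, 0.517, 0.826 and 0.878 CPM in WT chow replicates 1 to 4, at 4.51, 9.07, 6.01 and 3.204 CPM in KO chow mice, and at 0.772, 0.781, 0.697 and 1.52 CPM in KO mice on SC-435. In males, the values were 0.663, 0.465, 0.421 and 0.337 CPM in WT chow, 4.604, 2.83, 9.86 and 18.4 CPM in KO chow and 0.852, 0.462, 0.792 and 0.471 CPM in KO mice on SC-435. Every KO chow mouse was above every mouse of the other 6 groups, in which *Trem2* lay between 0.29 and 1.52 CPM. The means were 5.697 ± 2.52 CPM (SD, n = 4) in female and 8.93 ± 6.998 CPM in male KO chow mice, 7.67 and 18.9 times those of WT chow, and the fitted log2 differences were 2.93 (SE 0.33) and 4.3 (SE 0.63). On SC-435 the KO mean was 16.6% and 7.22% of its chow level in females and males.

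GPNMB is a lysosomal and surface glycoprotein of phagocytes filled with lipid. *Gpnmb* was close to the limit of counting in WT mice, at 0.155, 0.117, 0.0728 and 0.119 CPM in female WT chow (3 to 6 counts) and 0.117, 0.0547, 0.198 and 0.493 CPM in male WT chow (2 to 19 counts). KO chow mice held 9.63, 49.8, 10.99 and 2.96 CPM in females and 11.2, 14.7, 22.9 and 82.1 CPM in males. On SC-435 the KO mice held 0.187, 0.322, 0.361 and 0.409 CPM and 0.876, 0.608, 0.238 and 0.198 CPM. The KO chow mice of both sexes stood apart from all others, yet differed by up to 16.8 times among the 4 females. Group means on chow were 158 times higher in female and 152 times higher in male KO than WT mice, ratios that rest on few WT counts, and the fitted log2 differences were 7.27 (SE 0.99) and 7.22 (SE 0.92). *Gpnmb* in WT mice on SC-435 lay between 0.121 and 0.195 CPM in females and between 0.0527 and 0.617 CPM in males, overlapping WT chow. Female KO mice on SC-435 lay above all female WT chow mice, at counts of 8 to 18 against 3 to 6, and the gene was too low there to be tested.

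In the order of group means, *Gpnmb* ran from male KO chow (32.7 CPM) over female KO chow (18.3), male KO SC-435 (0.48), female KO SC-435 (0.32), male WT SC-435 (0.229), male WT chow (0.216) and female WT SC-435 (0.154) to female WT chow (0.116). Neighbouring groups overlapped at every step except that from female KO chow to male KO SC-435. *Trem2* ran from male KO chow (8.93 CPM) and female KO chow (5.70) to female KO SC-435 (0.943), male WT SC-435 (0.744), female WT chow (0.743), female WT SC-435 (0.656), male KO SC-435 (0.644) and male WT chow (0.472), and its neighbours also overlapped except at the step down from female KO chow.

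*Spp1* encodes osteopontin, a secreted adhesion protein that macrophages, bile duct cells and stellate cells can make. Female WT chow mice held 26.6, 29.99, 54.95 and 32.3 CPM, KO chow mice 144, 254, 251 and 116 CPM and KO mice on SC-435 85.96, 101, 82.5 and 120.2 CPM. In the males, the same groups held 11.4, 26.8, 25.6 and 22.3 CPM, 143, 124, 453 and 1147 CPM and 49.2, 39.1, 42.1 and 42.3 CPM. The KO and WT chow groups were apart in both sexes, and male KO replicate 4 had the highest value of all mice. *Spp1* rose in KO mice on chow with a log2 fold change of 2.4 (SE 0.3, adjusted p = 0.00198) in females and 4.48 (SE 0.77, adjusted p = 0.0376) in males. The male call was lost, at adjusted p up to 0.139, when any of 5 single mice was left out (WT chow replicates 2, 3 and 4 and KO chow replicates 3 and 4). SC-435 lowered it in male KO mice, with a log2 change of -3.43 (SE 0.67, adjusted p = 0.0123), whereas in females the change of -0.97 (SE 0.24, adjusted p = 0.0234) stayed within the fold limit of the call and 1 treated mouse, at 120.2 CPM, lay inside the chow range. It passed the fold limit in the fits without KO chow replicate 1, KO chow replicate 4 or KO SC-435 replicate 4. Part of the reads cannot be assigned with certainty, since 11.6% of the 50-base words of *Spp1* transcripts also occur in the overlapping *Gm42793*, which reached at most 21 counts.

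MMP12, the macrophage elastase, degrades elastin and other matrix proteins. *Mmp12* was at 0.362, 0.259, 0.218 and 0.3799 CPM in female WT chow mice, at 8.98, 29.4, 7.81 and 7.86 CPM in KO chow mice and at 0.538, 0.643, 0.7998 and 0.5003 CPM in KO mice on SC-435. For the male mice these levels were 0.156, 0.274, 0.297 and 0.233 CPM, 8.73, 9.56, 24.5 and 12.4 CPM and 0.633, 0.584, 0.423 and 0.198 CPM. No KO chow mouse overlapped with any mouse of another group in either sex. *Mmp12* rose by 5.45 (SE 0.54, adjusted p = 0.00131) in female and 5.84 (SE 0.46, adjusted p = 0.00163) in male KO mice on the log2 scale, and changed by -4.44 (SE 0.5, adjusted p = 0.00138) and -4.89 (SE 0.45, adjusted p = 0.00044) with SC-435. Among the 8 members not picked for their change, it had the largest fold change in each of these 4 contrasts.

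Galectin-3, encoded by *Lgals3*, is a secreted and lysosome-associated lectin that binds galactose-ended sugars. *Lgals3* measured 4.42, 4.35, 3.81 and 2.83 CPM in female WT chow mice, 14.4, 27.2, 12.1 and 9.34 CPM in KO chow mice and 3.16, 3.19, 3.74 and 3.96 CPM in treated KO mice. Males held 7.99, 3.45, 2.97 and 5.76 CPM, 8.87, 9.28, 28.99 and 39.8 CPM and 4.02, 4.18, 3.38 and 4.56 CPM in these groups. KO chow mice lay above WT chow mice in both sexes, in males by a small margin, since WT replicate 1 reached 7.99 CPM. The KO difference on chow was 2.02 (SE 0.31, adjusted p = 0.00339) in females, which passed the test, and 2.16 (SE 0.56, adjusted p = 0.112) in males, which did not. Without male WT chow replicate 1 the male value was 2.44 (adjusted p = 0.0488). The male difference also passed by DESeq2, at 2.07 (adjusted p = 0.00526), and in a single edgeR fit of the 4 male groups, at 2.13 (adjusted p = 0.0112). SC-435 lowered *Lgals3*, with log2 changes of -2.16 (SE 0.3, adjusted p = 0.0026) and -2.43 (SE 0.48, adjusted p = 0.0126) in female and male KO mice.

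CD9 is a tetraspanin of the cell surface that many cell types carry. *Cd9* stood at 11.4, 13.7, 10.8 and 10.7 CPM in female WT chow, 34.5, 40.9, 49.97 and 20.2 CPM in KO chow and 13.3, 11.7, 13.6 and 18.01 CPM in KO SC-435 mice. The male groups held 25.6, 12.6, 11.2 and 10.8 CPM, 24.2, 18.7, 40.1 and 43.7 CPM and 12.98, 13.99, 13.1 and 10.7 CPM. Male WT chow replicate 1 lay inside the KO range, while the other WT mice lay below it. *Cd9* rose by 1.63 (SE 0.23, adjusted p = 0.00255) in female KO mice, and the male difference was 1.12 (SE 0.37, adjusted p = 0.192), or 1.48 (adjusted p = 0.0279) without WT replicate 1. SC-435 lowered it, with log2 changes of -1.36 (SE 0.24, adjusted p = 0.00679) in females and -1.31 (SE 0.25, adjusted p = 0.0112) in males. Of its 50-base words, 14.4% also occur in other genes, so its level is less certain than those of *Trem2*, *Lgals3* and *Cd68*, which share none.

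CD68 is a lysosomal membrane protein of all macrophages, Kupffer cells included. *Cd68* was 9.44, 7.36, 7.84 and 6.91 CPM in female WT chow mice, 16.2, 24.8, 19.3 and 15.1 CPM in KO chow mice and 9.33, 7.604, 8.13 and 8.85 CPM in KO mice on SC-435. In male livers it was 13.7, 6.87, 6.27 and 8.48 CPM, 10.04, 11.7, 18.4 and 34.04 CPM and 6.38, 7.005, 5.92 and 10.2 CPM. The female groups were apart. In males only WT chow replicate 1, at 13.7 CPM, reached the KO range, lying above KO replicates 1 and 2. The other male WT chow mice lay below every KO chow mouse, and KO replicate 4 lay far above. In females the KO difference passed the test at 1.25 (SE 0.17, adjusted p = 0.00226) and SC-435 changed it by -1.15 (SE 0.15, adjusted p = 0.00236), a call lost on the fold limit at -0.99 without KO chow replicate 2. In males the KO difference was 1.12 (SE 0.42, adjusted p = 0.248), and SC-435 changed the gene by -1.33 (SE 0.37, adjusted p = 0.039). That last call was lost, at adjusted p up to 0.103, in 6 of the 8 fits that leave out 1 mouse (KO chow replicates 3 and 4 and each SC-435 mouse).

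*Itgax* encodes CD11c, an integrin chain of dendritic cells and of macrophages in this state, which pairs with the chain from *Itgb2*. *Itgax* was at 1.45, 0.823, 1.29 and 0.7598 CPM in female WT chow, 8.72, 15.4, 8.49 and 4.805 CPM in KO chow and 1.29, 2.04, 1.83 and 2.43 CPM in KO SC-435 mice. Male mice held 0.546, 0.465, 0.644 and 2.13 CPM, 4.72, 4.1, 12.7 and 10.7 CPM and 1.68, 1.36, 0.898 and 1.24 CPM. KO and WT chow mice did not overlap in either sex. The rise of 3.11 (SE 0.36, adjusted p = 0.00165) in females passed the test, and the male difference of 3.11 (SE 0.61, adjusted p = 0.0533) was of the same size with a wider error. Without male WT chow replicate 1 or replicate 4 it passed, the former at 2.91 (adjusted p = 0.0366). The male difference also passed by DESeq2, at 3.06 (adjusted p = 9.88e-06), and in a single edgeR fit of the 4 male groups, at 3.08 (adjusted p = 0.00258). Without the filter on low counts it passed at 3.10 (adjusted p = 0.0216). SC-435 lowered *Itgax*, with log2 changes of -2.3 (SE 0.33, adjusted p = 0.00308) in female and -2.63 (SE 0.4, adjusted p = 0.00466) in male KO mice. Its partner *Itgb2* changed by 1.2 (SE 0.18, adjusted p = 0.00292) in female KO mice and by -1.01 (SE 0.22, adjusted p = 0.0136) with SC-435, both past the test, and by 1.08 (SE 0.43, adjusted p = 0.282) and -1.08 (SE 0.37, adjusted p = 0.0697) in males, where neither passed. Words shared with *Itgad* make up 8.02% of *Itgax*.

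Lipoprotein lipase, encoded by *Lpl*, releases fatty acids from circulating triglyceride and is made by fat cells and muscle as well as by macrophages. *Lpl* stood at 29.1, 23.7, 27.4 and 26.9 CPM in female WT chow, 122, 172, 107 and 43.2 CPM in KO chow and 35.3, 24.5, 23.6 and 29.9 CPM in KO SC-435 mice. In male mice it stood at 9.75, 30.1, 24.2 and 58.2 CPM, 61.8, 58.2, 101 and 88.5 CPM and 65.95, 76.8, 29.3 and 50.1 CPM. In females, KO chow mice lay above the WT chow and treated KO mice, although WT SC-435 replicate 2, at 50.3 CPM, exceeded the lowest of them, while in males 1 WT chow mouse reached the KO range and 2 treated KO mice stayed within it. The female changes were 2.04 (SE 0.33, adjusted p = 0.00409) for KO on chow and -1.97 (SE 0.34, adjusted p = 0.00589) for SC-435, and the male values of 1.37 (SE 0.47, adjusted p = 0.21) and -0.47 (SE 0.29, adjusted p = 0.262) did not pass.

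*Adipoq* and *Plin1*, genes of fat cells, were counted in some of the libraries and moved with *Lpl* in part. In 9 libraries *Adipoq* had 83 to 363 counts, and in the other libraries at most 19. These were male WT chow replicates 1 and 4, male KO SC-435 replicates 1 and 2, female WT chow replicates 1 and 2, female KO chow replicates 2 and 3, and female WT SC-435 replicate 2. In male KO mice on SC-435, the 2 libraries with *Adipoq* at 5.23 and 8.56 CPM held *Lpl* at 65.95 and 76.8 CPM, and the 2 with 0.106 and 0 CPM held 29.3 and 50.1 CPM. Male WT chow replicate 4 (*Adipoq* 6.33 CPM) held 58.2 CPM of *Lpl*, whereas replicate 1 (9.87 CPM) had the lowest *Lpl* of all mice. Without the 9 libraries, a setting chosen after seeing the data, the *Lpl* difference between KO and WT on chow was 1.60 in females and 1.51 (adjusted p = 0.0461) in males. The female fit had 2 mice left in each group and called 0 of 16265 genes higher by edgeR (2071 genes at an unadjusted p under 0.05, 293 higher by DESeq2), so its adjusted p of 0.271 for *Lpl* says nothing of that gene alone. By DESeq2 7 of the 8 members were called higher in it. With SC-435 in KO mice it was -1.54 (adjusted p = 0.0428) in females and -0.95 (adjusted p = 0.13) in males. Beyond these fits, the part of fat cell RNA in the *Lpl* values was not tested.

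**Figure D2:**
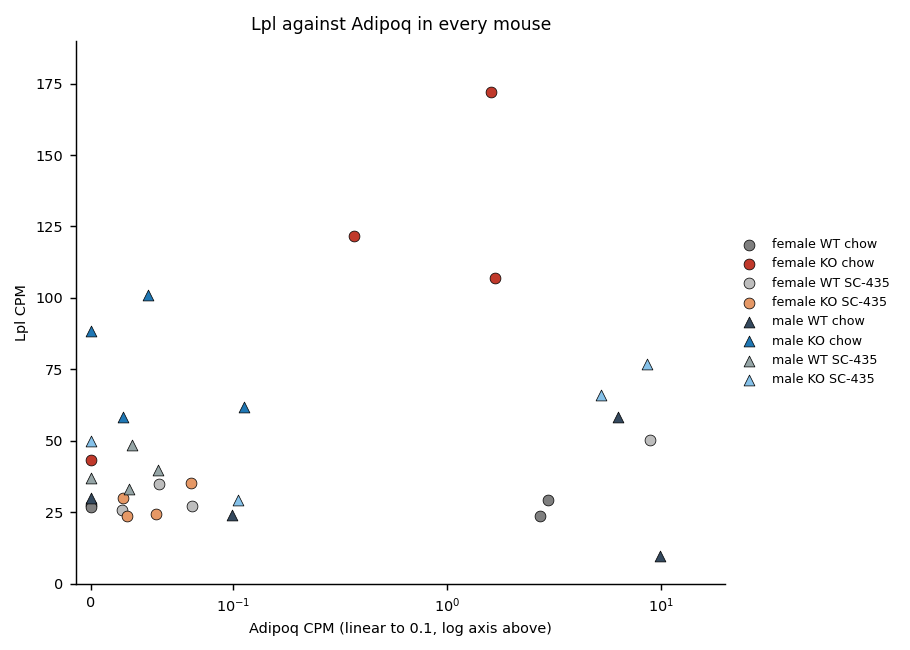
*Lpl* CPM against *Adipoq* CPM (linear to 0.1, log axis above) in the 32 mice, circles for females and triangles for males. The 3 highest *Lpl* values, 107, 122 and 172 CPM, belong to female KO chow mice with *Adipoq* between 0.368 and 1.67 CPM. WT mice with more *Adipoq* ranged in *Lpl* from 9.75 CPM (male WT chow replicate 1) to 58.2 CPM (male WT chow replicate 4).

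FABP5 carries fatty acids inside macrophages, epithelial cells and fat cells. *Fabp5* did not follow the other members. It stood at 33.3, 30.3, 44.8 and 12.2 CPM in female WT chow, 8.46, 13.2, 22.1 and 30.02 CPM in KO chow and 43.7, 53.3, 42 and 60.9 CPM in KO SC-435 mice. Among the males it stood at 29.6, 25.3, 20.4 and 15.1 CPM, 29.4, 31.5, 32.5 and 25.6 CPM and 27.5, 22.2, 26.1 and 28.03 CPM. Chow-fed WT and KO mice overlapped in both sexes, with differences of -0.72 (SE 0.42, adjusted p = 0.277) in females and 0.43 (SE 0.22, adjusted p = 0.379) in males. SC-435 raised *Fabp5* in female KO mice by 1.45 (SE 0.32, adjusted p = 0.0154), all 4 treated mice being above all 4 on chow, and changed it by -0.19 (SE 0.1, adjusted p = 0.209) in males. The difference between the sexes in this response was 1.62 (SE 0.38) on the log2 scale, with adjusted p = 0.0994. In male WT mice on SC-435 replicate 4 reached 64.1 CPM while the other 3 lay between 5.70 and 7.77 CPM. *Fabp5l2*, a processed copy of the gene, reached at most 2 counts, and 5.48% of the 50-base words of *Fabp5* occur in other genes.

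**Figure D3:**
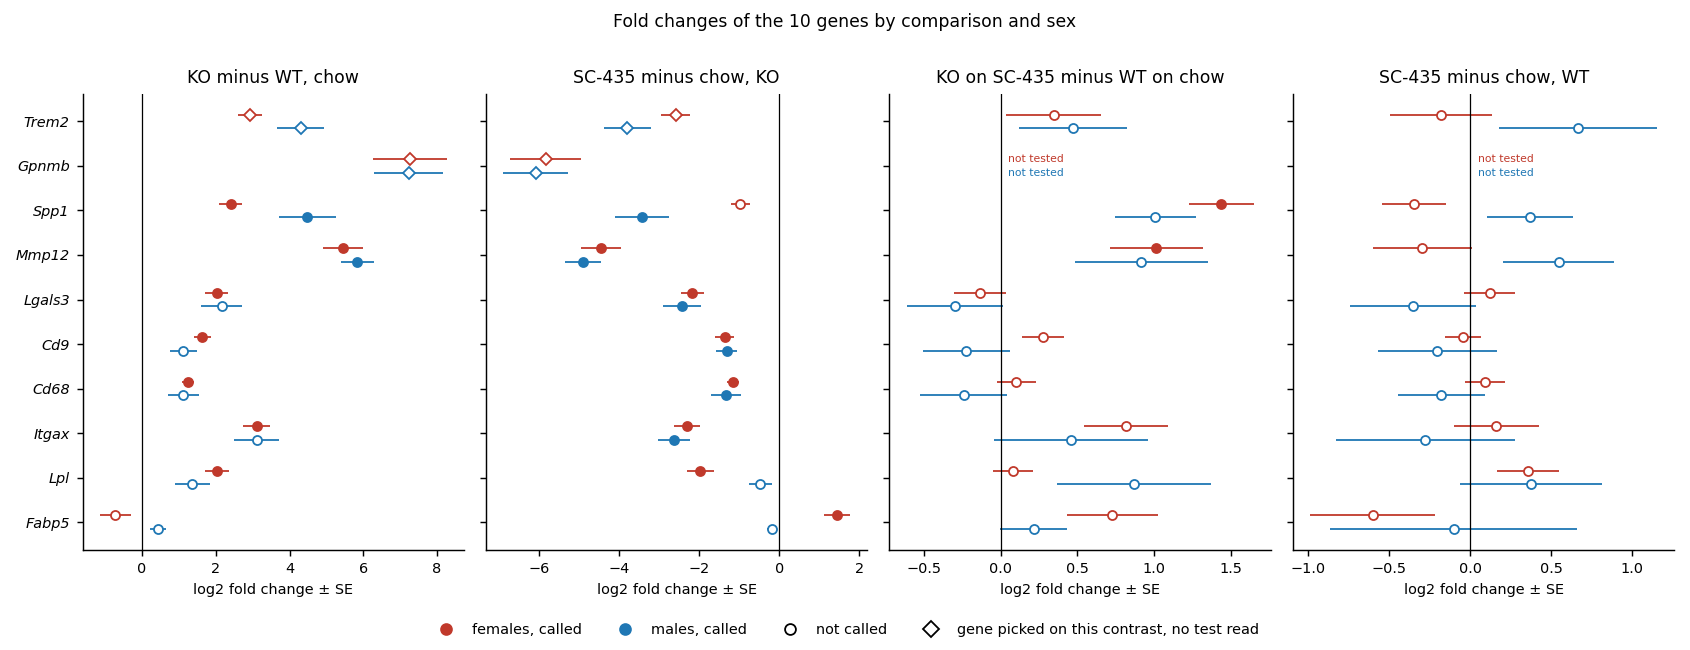
Log2 fold changes of the 10 genes with their standard errors in females (red) and males (blue) for 4 comparisons, filled where called and open where not. Diamonds mark *Gpnmb* and *Trem2* in the contrasts they were picked on. The 3 top genes of the KO comparison on chow in females are *Gpnmb* (7.27), *Mmp12* (5.45) and *Itgax* (3.11), and the wild-type panel, on a narrower axis, has no called gene.

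WT mice showed no called member with SC-435 in either sex by edgeR or DESeq2, against 0.686% higher and 0.413% lower of 15739 genes in females and 0.0131% and 0.0263% of 15211 in males. At an unadjusted p under 0.05, 0 of the 8 members passed in females and 0 in males. *Trem2*, given without a test, differed by -0.18 (SE 0.32) in females and 0.67 (SE 0.49) in males. *Gpnmb* was too low to be tested in WT mice. Female WT mice on SC-435 held *Cd9* between 10.1 and 12.5 CPM, *Cd68* between 7.29 and 9.16 CPM, *Itgax* between 0.926 and 1.39 CPM, *Lgals3* between 3.67 and 4.44 CPM and *Lpl* between 25.6 and 50.3 CPM. In male WT mice on SC-435 the same genes lay between 8.99 and 21.2 CPM (*Cd9*), 6.88 and 8.69 CPM (*Cd68*), 0.429 and 1.23 CPM (*Itgax*), 2.45 and 5.87 CPM (*Lgals3*) and 33.2 and 48.4 CPM (*Lpl*). For these 5 genes WT mice on both diets overlapped in either sex. *Mmp12* was the 1 member whose WT groups did not, in males only, at 0.331 to 0.375 CPM on SC-435 against 0.156 to 0.297 CPM on chow, as in 3.69% of genes in that direction, and its difference of 0.55 (adjusted p = 0.836) did not pass. Tested directly, the SC-435 effect in female KO mice was lower than that in WT mice for 6 of the 8 members, against 1.78% of 16882 genes. The differences between the effects were -4.15 for *Mmp12*, -2.46 for *Itgax*, -2.33 for *Lpl*, -2.29 for *Lgals3*, -1.32 for *Cd9* and -1.25 for *Cd68* on the log2 scale (adjusted p 0.0141 to 0.0278). The call of *Cd9* was lost in 8 of the 16 fits that leave out 1 mouse, at adjusted p up to 0.071. In males 1 of the 8 passed, *Mmp12* at -5.44 (SE 0.56, adjusted p = 0.000774), against 0.0785% of 16555 genes. *Spp1* had -3.81 (SE 0.74, adjusted p = 0.0712) in males, or -3.63 (adjusted p = 0.0477) without male WT chow replicate 1, and -0.63 (SE 0.35, adjusted p = 0.328) in females.

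Between the sexes, no member had a KO effect on chow that differed past the test by edgeR or DESeq2, against 0.0117% of 17026 genes in each direction. At an unadjusted p under 0.05 only *Spp1* did, with a female minus male difference of -2.03 (SE 0.78, adjusted p = 0.658). For the SC-435 effect in KO mice no member passed by edgeR, against 0.0996% higher and 0.111% lower of 17069 genes. By DESeq2 1 member passed, *Fabp5*, and 3 members had an unadjusted p under 0.05. They were *Fabp5*, *Spp1* at 2.43 (adjusted p = 0.173) and *Lpl* at -1.51 (adjusted p = 0.199). Male and female WT mice on chow showed no called member by either tool, against 0.689% higher and 0.709% lower of 15525 genes, and 0 of 8 at an unadjusted p under 0.05. *Trem2*, given without a test, differed there, male minus female, by -0.66 (SE 0.33).

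Some members of the list stayed higher in KO mice on SC-435 than in WT mice on chow. Set against WT chow females, *Spp1* at 1.44 (SE 0.21, adjusted p = 0.00174) and *Mmp12* at 1.01 (SE 0.3, adjusted p = 0.0436) were called higher in treated KO females, 2 of 8 against 2.71% of 15881 genes. The *Mmp12* call was lost in 7 of the 8 fits that leave out 1 mouse, at adjusted p up to 0.12, and held without WT chow replicate 1. It was also lost in 3 other alternatives, at adjusted p up to 0.173. Treated KO mice had 97.5 ± 17.2 CPM of *Spp1* (SD, n = 4) against 35.98 ± 12.9 CPM in WT chow mice, so that 39.6% of the female excess on chow was left. For *Mmp12*, 2.39% of the excess was left. The female excess left was 10.04% for *Cd9*, 9.896% for *Itgax*, 5.37% for *Cd68* and 1.84% for *Lpl*, none of them called against WT chow, and *Lgals3* was below its WT mean. At an unadjusted p under 0.05, 4 of the 8 members passed in females, *Spp1*, *Itgax*, *Mmp12* and *Fabp5*. Treated KO females had mean levels of 1.90 CPM of *Itgax* against 1.08 CPM in WT chow, and 50 CPM of *Fabp5* against 30.2 CPM. In males 53.3% of the *Lpl* difference between KO and WT on chow was left, in a treated group where 2 libraries held *Adipoq*, and 4.92% of that of *Itgax* and 1.62% of that of *Mmp12*. For male *Spp1* 4.86% was left, at 43.2 ± 4.27 against 21.5 ± 7.01 CPM, and the difference of 1.01 (SE 0.26, adjusted p = 0.235) did not pass although the groups did not overlap, as in 5.07% of genes. Without male WT chow replicate 1 that difference was 0.80 (adjusted p = 0.00198), below the fold limit. None of the 8 members was called in males by edgeR or DESeq2, against 0.169% higher of 15395 genes, with 1 at an unadjusted p under 0.05.

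Against WT mice on the same SC-435 diet, 3 of the 8 members were called higher in KO females, against 1.99% of 15869 genes. *Spp1* differed by 1.79 (SE 0.12, adjusted p = 5.69e-05), *Mmp12* by 1.31 (SE 0.27, adjusted p = 0.0152) and *Fabp5* by 1.33 (SE 0.27, adjusted p = 0.0133), and in all 3 the KO mice lay above every WT mouse, as in 9.07% of genes. WT females on SC-435 held *Spp1* between 25.9 and 30.02 CPM, *Mmp12* between 0.214 and 0.29 CPM and *Fabp5* between 11.8 and 31.8 CPM. *Trem2*, picked for its fall in these KO mice, differed by 0.53 (SE 0.35), given without a test, its 4 KO values overlapping those of WT. KO males on SC-435 had no called member by edgeR or DESeq2, against 0.00648% higher and 0.0194% lower of 15434 genes. In them, 2 members had an unadjusted p under 0.05, *Spp1* at 0.63 (SE 0.12, adjusted p = 0.184) and *Itgax* at 0.72 (SE 0.32, adjusted p = 0.563).

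**Figure D4:**
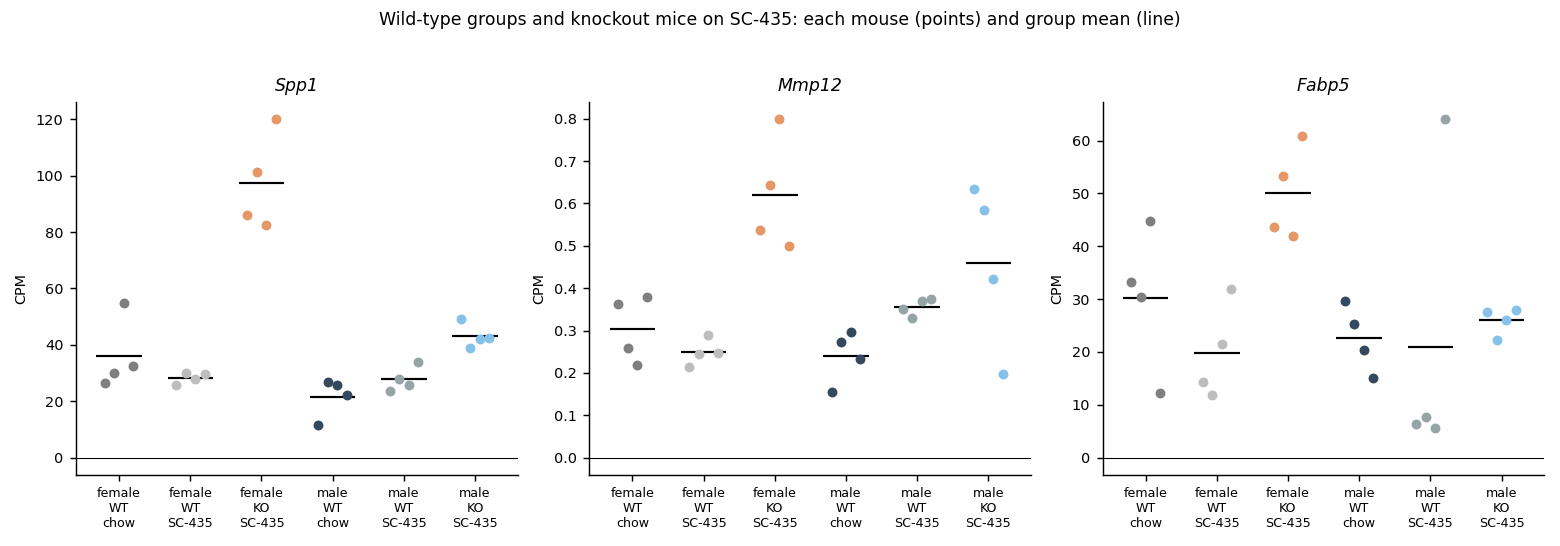
CPM of *Spp1*, *Mmp12* and *Fabp5* in each mouse (points) and group mean (line) of the WT groups and the KO mice on SC-435. Female KO mice on SC-435 hold 82.5 to 120.2 CPM of *Spp1*, above every WT mouse, and in males WT replicate 4 on SC-435 stands apart for *Fabp5* at 64.1 CPM.

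The KO chow mice were not alike. Female replicate 2 was the highest of its group in 8 of the 10 genes (*Trem2*, *Gpnmb*, *Spp1*, *Lgals3*, *Cd68*, *Itgax*, *Lpl* and *Mmp12*), and female replicate 4 was the lowest in 8 (the same list with *Cd9* in place of *Mmp12*). *Fabp5* ran the other way in females, with replicate 4 the highest at 30.0 CPM and replicate 1 the lowest at 8.46 CPM. In males, replicate 4 was the highest in 6 genes and replicate 3 in the other 4, while replicates 1 and 2 were the lowest in 9. The widest spread among the members was that of *Gpnmb* (coefficient of variation 116% in females and 102% in males) and of *Spp1* in males (102%), and the narrowest that of *Cd68* in females (23.1%) and *Fabp5* in males (10.2%). Summed over 10 pan-macrophage markers, the level was 532 to 824 CPM in female KO chow mice, highest in replicate 2, and 325 to 1206 CPM in males, highest in replicate 4, against 307 to 373 and 246 to 458 CPM in WT chow mice.

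**Figure D5:**
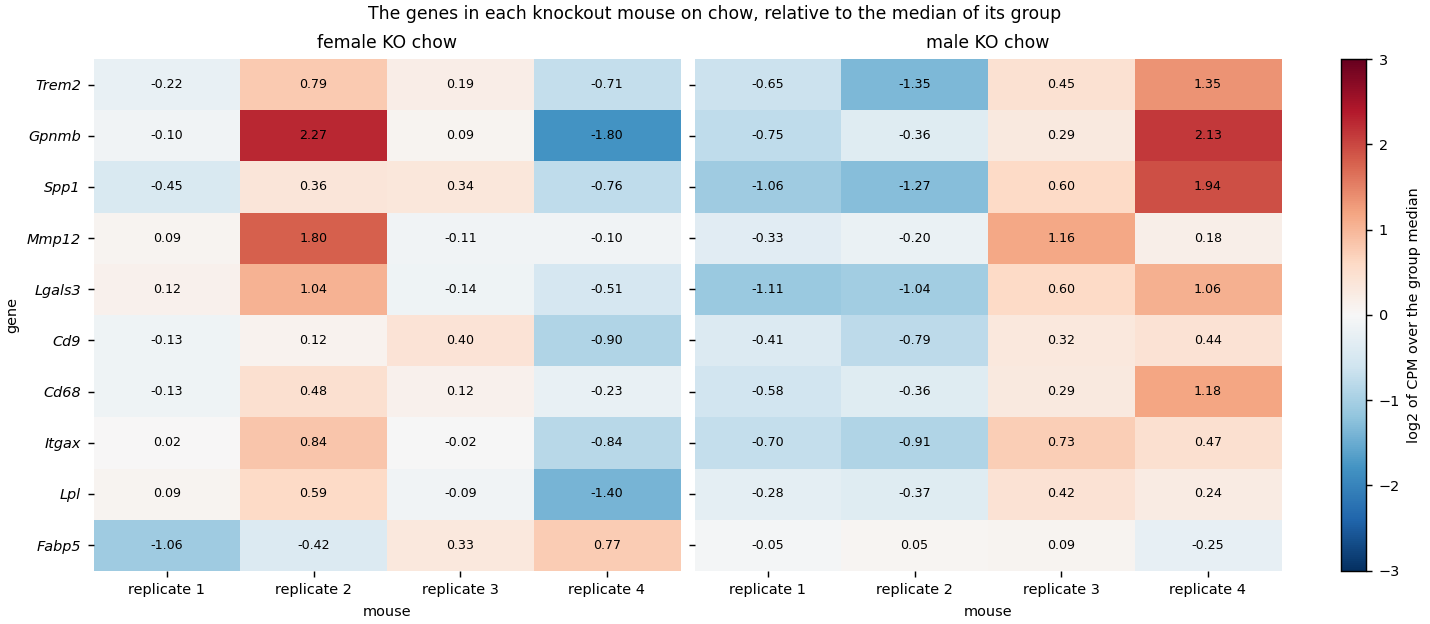
Log2 of each gene's CPM over the median of its group (colour and number) in the 4 female and 4 male KO mice on chow. Female replicate 2 and male replicate 4 carry the reddest columns and female replicate 4 the bluest, except for *Fabp5*.

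Per kilobase of gene length, which makes levels of different genes comparable, *Spp1* was the most abundant member in both sexes on chow, at 21.8 CPM per kb in female WT and 116 in female KO mice, and 13.1 and 283 in males. *Gpnmb* was the least abundant in WT mice, at 0.0178 CPM per kb in females and 0.0331 in males, and stood at rank 7 in KO mice, at 2.82 and 5.02. *Fabp5* had rank 2 in WT females at 8.46 CPM per kb and rank 6 in KO females at 5.17. *Trem2* was at 1.15 CPM per kb in female KO chow mice, the lowest of the members there, and at 1.81 in males.

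By the root mean square difference of log2 CPM over the 32 mice, each gene centred on its own mean, the genes most like *Gpnmb* among 12968 were *Mmp12* (0.96), *Sprr1a* (0.98), *Shc2* (1.21), *Inava* (1.21) and *Mmp13* (1.37), where the median gene had 2.84. Those most like *Trem2* were *Cd63* (0.56), *Ddr1* (0.58), *Capg* (0.62), *Ifi27l2b* (0.66) and *Cd14* (0.66), against a median of 1.54. *Mmp12* is itself a member. *Sprr1a*, a cornified envelope protein of stressed epithelium, had group means of 0.0959 and 6.10 CPM in female WT and KO chow mice and 0.00648 and 9.46 CPM in males. *Cd63*, a lysosomal tetraspanin, had 4.25 and 26.5 CPM in females and 3.67 and 27.9 CPM in males.

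Of 10 signalling partners of TREM2, 5 were called higher in female KO chow mice (*Syk*, *Inpp5d*, *Vav1*, *Blnk* and *Btk*), against 5.67% of all genes, with a median log2 fold change of 1.06, and 0 of 10 in males, with a median of 0.97, or 1 (*Blnk*) without male WT chow replicate 1. Among all genes 0.914% were higher in males, or 3.18% without that mouse. With SC-435, 4 of 10 were lower in female KO mice (*Tyrobp*, *Syk*, *Blnk* and *Btk*) and 1 in males (*Blnk*), against 3.7% and 4.57% of all genes. *Tyrobp*, the adaptor that carries the signal, changed by 0.99 (SE 0.19, adjusted p = 0.00851) in female KO mice, just under the fold limit, and by -1.19 (SE 0.21, adjusted p = 0.00641) with SC-435. In males these values were 0.91 (SE 0.43, adjusted p = 0.354) and -1.04 (SE 0.38, adjusted p = 0.0847). *Syk*, the kinase downstream, rose by 1.3 (SE 0.15, adjusted p = 0.00168) in females and changed by -1.17 (SE 0.2, adjusted p = 0.00554) with SC-435.

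Among 25 lysosomal and lipid-handling genes of such macrophages, 4 were higher in female KO chow mice (*Ctsk*, *Ctss*, *Cd63* and *Abcg1*), against 5.67% of all genes, and the median of 0.27 was far below that of the members. *Cd63* rose by 2.63 (SE 0.34, adjusted p = 0.00216) in females and 2.98 (SE 0.57, adjusted p = 0.0483) in males and changed by -2.23 (SE 0.33, adjusted p = 0.00347) and -2.9 (SE 0.52, adjusted p = 0.00882) with SC-435. *Ctss*, a lysosomal protease, and *Abcg1*, a cholesterol exporter, rose by 1.31 (SE 0.21, adjusted p = 0.00407) and 1.19 (SE 0.17, adjusted p = 0.00251) in females. In males 1 of the 25, *Cd63*, was called against 0.914% of all genes, and 2 (*Ctsk* and *Cd63*) against 3.18% without WT chow replicate 1. The MiT/TFE transcription factors, which drive lysosomal genes and *Gpnmb* in other systems, had 0 of 4 called in either sex and contrast. *Mitf* differed by -0.07 (SE 0.18, adjusted p = 0.824) in females and 0.77 (SE 0.31, adjusted p = 0.288) in males on chow. *Fabp4*, the fatty acid carrier closest in kind to *Fabp5*, differed by -0.26 (SE 0.38, adjusted p = 0.691) and -0.85 (SE 0.51, adjusted p = 0.457), and had its highest level, 48.9 CPM, in female WT SC-435 replicate 2, a library with *Adipoq*.

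Of 9 tested osteopontin receptors, only *Cd44* was called higher in female KO chow mice, against 5.67% of all genes. *Cd44* differed there by 1.11 (SE 0.15, adjusted p = 0.00216). It was lower with SC-435 at -1.19 (SE 0.21, adjusted p = 0.00694) in females and -1.55 (SE 0.45, adjusted p = 0.043) in males. In the 9 genes that control LPL, 0 were higher (5.67% of all genes) and 1 was lower (1.01% of all genes) in female KO chow mice, *Angptl4*, a secreted inhibitor of the lipase, at -1.56 (SE 0.27, adjusted p = 0.00592). *Gpihbp1*, the capillary anchor of LPL, differed by -0.35 (SE 0.15, adjusted p = 0.149) in females and -0.62 (SE 0.31, adjusted p = 0.376) in males. Of the other galectins 1 of 5 tested (*Lgals1*) was called higher in female KO chow mice, against 5.67% of all genes. Against the same share, 2 of 7 other tetraspanins (*Cd53* and *Tspan8*) and 1 of 3 leukocyte integrins (*Itgb2*) were called. In males these lists had 1 called gene on chow, *Tspan8*, against 0.914% of all genes. A second, *Itgam*, was called without WT chow replicate 1, against 3.18% of all genes.

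Markers of several other cell types moved in the same contrasts, and their part in the members' values was not tested. In female KO chow mice 4 of 10 pan-macrophage markers were higher (*Adgre1*, *Fcgr1*, *Lyz2* and *Ptprc*, with *Adgre1* at 1.1 (SE 0.12, adjusted p = 0.00144)), as were 4 of 6 monocyte markers, 5 of 8 dendritic cell markers, 3 of 3 neutrophil markers, 6 of 9 cholangiocyte markers, 5 of 10 stellate cell and fibroblast markers and 0 of 8 endothelial markers, each to be read against 5.67% of all genes. Resident Kupffer cell markers had 1 gene higher, *Marco* at 1.48 (SE 0.27, adjusted p = 0.00729), and 1 lower, *Cd163* at -2.01 (SE 0.4, adjusted p = 0.00949), and their summed level was 535 to 657 CPM in female KO chow mice against 469 to 602 CPM in WT. In male KO chow mice 0 of 10 pan-macrophage, 0 of 10 Kupffer, 1 of 5 monocyte (*Cx3cr1*), 0 of 8 dendritic cell, 0 of 3 neutrophil, 3 of 9 cholangiocyte and 0 of 10 stellate cell and fibroblast markers were higher, against 0.914% of all genes. Without WT chow replicate 1 the counts were 0 pan-macrophage, 0 Kupffer, 1 monocyte, 0 dendritic cell, 2 neutrophil, 6 cholangiocyte and 4 stellate cell and fibroblast markers, against 3.18%. The summed stellate cell and fibroblast level was 411 to 1377 CPM in male KO chow mice against 236 to 292 CPM in WT chow mice. With SC-435, 3 of 10 pan-macrophage markers fell in female KO mice and 1, *Lyz2*, in males, against 3.7% of all genes in females and 4.57% in males. In males 5 of 5 monocyte, 6 of 9 cholangiocyte and 6 of 10 stellate cell and fibroblast markers fell as well. Mean summed levels of these lists were also lower in female KO mice on SC-435 than on chow. They were 13.36 against 27.15 CPM (monocyte), 48.55 against 104.7 CPM (cholangiocyte) and 465 against 771.4 CPM (stellate cell and fibroblast). Hepatocyte markers had 0 of 7 higher and 1 lower, *Apoa1*, in female KO chow mice, against 1.01% of all genes. Their summed level was 56840 to 77670 CPM in these mice, below the 92560 to 117600 CPM of female WT chow mice and the 82620 to 96850 CPM of KO mice on SC-435.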

How the data were processed

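Poly-A RNA from the livers of 32 mice was sequenced on an Illumina platform by the authors' provider. The submitters' processing notes name HISAT2 2.0.5, featureCounts 1.5.0-p3, DESeq2 1.20.0 and the build mm10. The labels name both a directional and a non-directional library kit without saying which was used, so strandedness is not settled here. The authors deposited 1 table with raw counts per gene, which were used here, and FPKM values, which the authors scaled by gene length and library and which were not used. Gene length was deposited beside them and served for levels per kilobase. Columns of the authors' own fold changes and p-values (DESeq2) were not used.

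Counts were scaled by TMM and fitted with edgeR 4.0.16 (R 4.3.3) after filterByExpr, by the quasi-likelihood test on the 2 groups compared, with Benjamini-Hochberg adjustment over all genes tested. Interactions used the 4 groups concerned and are called at adjusted p under 0.05 alone. The fits were tested on simulated data. Alternatives were DESeq2 1.42.0, other scalings and filters, a replicate block, a joint fit, and leaving out each library. The members and the gene lists were chosen with earlier results of these data known. All members are named in the text for KO against WT on chow and for SC-435 in KO mice, and only some of them in the other comparisons. Of other lists, those with the smallest adjusted p and the direct partners of a member are named. Counts of the 48 within-group pairs of libraries differed beyond sampling noise (lowest chi-square per gene 20.3). Nothing states that libraries share cages or days, and the p-values set each group difference against the spread between these mice.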

Additional observations from a re-analysis of the deposited data

Results flagged for a closer look

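In 80 sets of 4 mice (10 genes in 8 groups), 4 held a mouse far from the others, about what chance gives at 1 in 20. *Trem2* reached 1.52 CPM in female KO SC-435 replicate 4. *Lgals3* was 3.67 CPM in female WT SC-435 replicate 4. *Mmp12* reached 29.4 CPM in female KO chow replicate 2, the mouse that was highest in 8 of the 10 genes. *Fabp5* reached 64.1 CPM in male WT SC-435 replicate 4, a mouse that was the highest of its group in 7 of the 10 genes (*Trem2*, *Gpnmb*, *Cd9*, *Spp1*, *Lgals3*, *Mmp12* and *Fabp5*), with *Cd9* at 21.2 CPM. In the same mouse the sum of 8 genes listed as adipocyte markers, nearly all of it *Car3*, was 1204 CPM. It was 4649 to 5256 CPM in the other mice of its group. *Adipoq* had at most 2 counts in each of these mice, so the sum does not measure fat cell RNA there.

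The response to SC-435 differed between KO and WT mice by the edgeR interaction test. In females the difference on the log2 scale was -1.32 for *Cd9* (adjusted p = 0.0278), -2.29 for *Lgals3* (0.0141), -1.25 for *Cd68* (0.0141), -2.46 for *Itgax* (0.0157), -2.33 for *Lpl* (0.0157) and -4.15 for *Mmp12* (0.0141). In males it was -5.44 for *Mmp12* (adjusted p = 0.000774). These contrasts share the KO chow mice with the comparisons on which the list was described.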

How the results depend on the processing

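The count of members called higher in KO over WT females on chow stayed at 7 in every alternative but 1 and in every fit without 1 mouse. The exception was the fit without the 9 libraries with *Adipoq*. In that setting, chosen after seeing the data, it was 0 (2 mice a group, 0 of 16265 genes higher). Members higher with SC-435 in KO females went from 1 to 0, where 161 of 16708 genes were higher against 344 of 16332 before. Those lower in KO males went from 6 to 1, with 2 treated mice left. There 93 of 16823 genes were lower, against 730 of 15984 before. By DESeq2 in this setting 0 of these members were higher in KO females and 5 were lower in KO males. Called members in the other comparisons moved as follows. For KO against WT males on chow, 2 became 1 by library size only and with the replicate block. They became 4 by DESeq2 and by a single fit of the 4 groups, with *Lgals3* and *Itgax* added. *Itgax* was also added without the filter on low counts. For KO females on SC-435 against WT chow, 2 became 1 without a filter on low counts, with the replicate block and in the single fit. Against WT on SC-435, 3 became 1 in the single fit. For the interaction in females, 0 higher became 1 (*Fabp5*) by library size only, by DESeq2 and without the filter. In males, 1 lower became 3 by DESeq2 and 2 without the filter. For the sex difference of the SC-435 effect, 0 higher became 1 by DESeq2. The cause was not tested. Leaving out 1 mouse gave 1 to 5 for KO males on chow (5 without WT chow replicate 1). For KO females on SC-435 against WT chow it gave 1 to 2 of the 8 members. *Gpnmb*, picked for its change, passed the filter on low counts in some of these fits, such as those without WT chow replicate 1 or KO SC-435 replicate 1. It is not counted in any of them. The range was 0 to 1 for KO males against WT on SC-435 (*Fabp5*, without WT SC-435 replicate 4). It was 0 to 1 higher in the female interaction and 1 to 2 lower in the male one. For the sex difference of the SC-435 effect it was 0 to 1 in each direction (*Fabp5* and *Lpl*, without female KO chow replicate 4). Lowered members with SC-435 ranged from 5 to 7 in females and 5 to 6 in males.

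Scaling by library size alone moved the median of all genes by up to 0.25 on the log2 scale (from 0.04 to 0.29 for KO against WT males on chow) and the split of calls with SC-435 in KO females from 344 higher and 604 lower to 285 and 929. Pairing by replicate number was not supported, as the numbers are shared across groups only by name, and in 0 of 10 comparisons did all 4 pairs correlate over 0.1 (range -0.15 to 0.15). With the replicate block *Mmp12* lost its call in KO females on SC-435 against WT chow (adjusted p = 0.111), *Spp1* in KO males on chow (0.0849) and *Cd9* in the female interaction (0.0595). Few counts limit *Gpnmb* in WT mice.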
